A study of Mus musculus with 6 samples.

Results

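In all, 10 genes were examined in RNA-Seq libraries of primary mouse mesangial cells, the contractile cells that support the capillaries of the kidney glomerulus. They comprised the secreted Wnt antagonists Sfrp1, Sfrp2, Frzb, Dkk1, Dkk2, Dkk3 and Wif1, and the Wnt feedback genes Axin2, Nkd2 and Lef1. They were taken by gene symbol from the expression table, in which 9 of the 10 had a row among 19730 rows, and the rule itself uses no measured value. Wif1, a secreted protein that binds Wnt, had no matching row and was not analysed here. The 3 Control and 3 TGF-β1 libraries came from cells of passages 3 to 6 kept in Dulbecco's medium with 25.5 mM glucose and 20% serum, so that both groups share high glucose. The TGF-β1 group received transforming growth factor beta 1, a secreted driver of scarring, at 10 ng/ml for 72 h, and the labels do not say what was added to the Control cells or for how long these were kept. The question asked of these genes was how their levels differ between the groups.

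Wnt proteins bind Frizzled and LRP receptors and thereby stop the breakdown of β-catenin, which then enters the nucleus and activates genes together with TCF/LEF factors. Secreted antagonists act outside the cell. Proteins of the SFRP family and Wif1 bind Wnt itself, whereas Dkk1 and Dkk2 bind the LRP co-receptors, and Dkk3 is a divergent Dickkopf protein whose part in Wnt signalling is less clear. Axin2, Nkd2 and Lef1 are genes that Wnt signalling is known to induce in many tissues: Axin2 belongs to the complex that breaks down β-catenin, Nkd2 binds the signal transducer Dishevelled, and Lef1 is a DNA-binding partner of β-catenin.

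With TGF-β1 the Dickkopf genes Dkk3 and Dkk2 and the transcription factor gene Lef1 rose, whereas Sfrp2 was listed at 0 in all 3 TGF-β1 libraries. Dkk3 went from 81.4 ± 4.13 to 167 ± 7.72 FPKM (SD, n = 3 per group), Lef1 from 5.56 ± 0.501 to 14.3 ± 1.94 FPKM, Dkk2 from 0.304 ± 0.186 to 2.0 ± 0.348 FPKM, and Sfrp2 from 5.22 ± 2.16 FPKM to 0. FPKM is the fragments assigned to a transcript, scaled by transcript length and library size, so levels of different genes can be set side by side. Axin2, the feedback gene most often read as a sign of Wnt activity, gave 0.991 ± 0.0597 FPKM in Control and 0.882 ± 0.363 FPKM with TGF-β1, with overlapping groups. Frzb, Nkd2, Sfrp1 and Dkk1 stayed under 0.4 FPKM in every library. In these bulk libraries, fewer cells that express a gene and less RNA of it per cell cannot be told apart.

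Genes were tested with limma, a linear model fitted across all rows, on log2(FPKM + 1), and an adjusted p under 0.05 was called a change. A log2 change below is the TGF-β1 mean minus the Control mean on that scale, where the added 1 shrinks differences between low levels. Of the 11898 rows with a mean of at least 1 FPKM over the 6 libraries, 5721 were called, which is 48.1%, and 1659 of them also moved by 1 log2 unit or more, which is 13.9%. Of the 9 genes, 4 passed this filter, and all 4 of these were called, 3 up (Dkk3, Dkk2, Lef1) and 1 down (Sfrp2), each by 1 log2 unit or more. Sfrp2 passed the filter only through its Control level and Dkk2 only through its TGF-β1 level, so both had to differ, and the count is a description of the 4 genes. Their groups did not overlap, which held for 59.4% of the rows past the filter. Among those rows, 1.98% had a larger absolute log2 change than Sfrp2, 10.7% than Lef1, 11% than Dkk2 and 14.6% than Dkk3.

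The promoters of Sfrp2, Lef1, Dkk2 and Axin2 are shown because these genes take the 3 courses seen, a fall, a rise and no called change, and because CTTTG is the core that TCF/LEF factors read. Each is the 250 bases before the first listed transcription start, from RefSeq on build GRCm38.p6, plus strand, 5′ to 3′, with CTTTG or its reverse complement CAAAG in capitals. The windows are chr3:83766071-83766320 for Sfrp2, chr3:131110047-131110296 for Lef1, chr3:132085042-132085291 for Dkk2 and chr11:108920099-108920348 for Axin2.
Sfrp2: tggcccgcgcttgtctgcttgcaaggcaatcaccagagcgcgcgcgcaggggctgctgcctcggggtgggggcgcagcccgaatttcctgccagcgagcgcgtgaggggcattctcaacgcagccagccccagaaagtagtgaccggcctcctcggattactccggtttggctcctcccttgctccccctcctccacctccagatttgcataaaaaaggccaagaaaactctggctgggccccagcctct
Lef1: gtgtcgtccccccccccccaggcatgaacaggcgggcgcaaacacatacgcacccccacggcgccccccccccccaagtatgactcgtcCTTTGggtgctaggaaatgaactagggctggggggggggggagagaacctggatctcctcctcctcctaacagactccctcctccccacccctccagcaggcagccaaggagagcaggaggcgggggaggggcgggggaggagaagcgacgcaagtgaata
Dkk2: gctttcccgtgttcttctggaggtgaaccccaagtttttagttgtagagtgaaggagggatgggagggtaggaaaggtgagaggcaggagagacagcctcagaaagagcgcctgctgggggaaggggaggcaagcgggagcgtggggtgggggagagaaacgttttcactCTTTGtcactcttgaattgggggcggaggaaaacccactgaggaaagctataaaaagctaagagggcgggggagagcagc
Axin2: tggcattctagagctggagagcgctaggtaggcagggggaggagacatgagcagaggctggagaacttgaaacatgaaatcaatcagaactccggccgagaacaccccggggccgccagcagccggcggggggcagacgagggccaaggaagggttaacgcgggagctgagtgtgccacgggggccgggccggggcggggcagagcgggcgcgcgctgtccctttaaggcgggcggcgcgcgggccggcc
The core stands once in the Lef1 and once in the Dkk2 window, and these letters are absent from the windows of Sfrp2 and Axin2. The same letters occur in 48.6% of 32851 mouse promoter windows of this length. The windows also differ in CpG dinucleotides, the bases that DNA methylation marks, with 24 in Axin2, 16 in Sfrp2, 11 in Lef1 and 7 in Dkk2, against a median of 6 over all windows. Their GC content was 69.2%, 63.6%, 66.4% and 55.6% in the same order, against a median of 52.4%. Dkk2 alone of the 8 genes with a window has TATAAA on the forward strand between 40 and 20 bases before the start, where 1.91% of all windows have it.

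In all, 8 of the 10 genes had a promoter entry in RefSeq, with 11 windows, 4 of which belong to Lef1. Sfrp1 and Dkk3 had none. CTTTG on either strand was found for 5 genes, namely Dkk1, Dkk2, Frzb, Lef1 and Wif1. The longer CTTTGA, which contains it, was found for Dkk1, Frzb and Lef1 (3 genes, 13.8% of all windows), and CTTTGAT for 0 of them (3.21% of all windows). CAGACA, a box that SMAD proteins, the messengers of TGF-β, can bind, was found on either strand for Sfrp2, Lef1 and Nkd2 (3 genes, 17.1% of all windows). For Lef1, CTTTGA and CAGACA came from its other starts and are absent from the window shown. Genes were counted over all their windows, whereas the shares are of single windows. By window, CTTTG was found in 8 of the 11, CTTTGA in 3, CTTTGAT in 0 and CAGACA in 3. A match of letters is a description and not a binding site.

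Dkk3 was the most abundant of the 9 genes in both groups. It was listed at 82.7, 84.8 and 76.8 FPKM in Control and at 175, 166 and 160 FPKM with TGF-β1. Every TGF-β1 library stood above every Control library, and the ratio of the means was 2.05-fold. The log2 change was 1.03 with a standard error of 0.0785 (limma adjusted p 1.72e-04). Upper-quartile scaling (0.94), quantile normalization (0.85) and leaving out Control replicate 3 (0.99) or TGF-β1 replicate 1 (0.99) brought it under 1 on the log2 scale without ending the call. The gene lies on mm9 chromosome 7, 119259533 to 119302571, minus strand, with 8 exons and 1 annotated transcript.

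Dkk2, an LRP-binding antagonist, was listed at 0.181, 0.518 and 0.212 FPKM in Control and at 1.80, 2.40 and 1.80 FPKM with TGF-β1. The lowest TGF-β1 library thus stood well above the highest Control library, and the ratio of the means was 6.58-fold. By the depth recovered from the smallest FPKM steps, these values rest on about 7, 20 and 8 fragments in Control and 69, 85 and 68 with TGF-β1. The log2 change was 1.21 with a standard error of 0.163 (limma adjusted p 0.0016). Dkk1, the best known LRP-binding antagonist, was listed at 0 in 5 of 6 libraries and at 0.0409 FPKM in TGF-β1 replicate 1, which corresponds to 1 fragment. A count of 3 fragments, the limit that 0 allows, would be 0.122 to 0.133 FPKM for this gene, and no difference was detectable at this depth (limma without the filter, adjusted p 0.706). The fragment numbers and limits cover counting error only.

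Sfrp2, which binds Wnt through a domain resembling that of Frizzled, was listed at 4.86, 3.26 and 7.54 FPKM in Control and at 0 in each TGF-β1 library. The Control values spread more than 2-fold, yet the lowest of them rests on about 65 fragments, and the other two on about 97 and 147. A count of 0 allows up to 3 fragments, or 0.152 to 0.164 FPKM, in the TGF-β1 libraries. The log2 change was -2.58 with a standard error of 0.253 (limma adjusted p 4.31e-04), a value that depends on the number added before taking the logarithm, so a ratio of the group means is left out. A 0 may also mark an FPKM that could not be estimated, since 3 of the 6135 protein-coding rows averaging at least 10 FPKM have one in some library. Sfrp2 was 1 of 5 protein-coding rows listed at 0 in every TGF-β1 library, among 9029, short ones left out, with a Control mean of at least 3 FPKM. It lies on mm9 chromosome 3, 83570243 to 83578238, plus strand, and overlaps Gm16790 on the opposite strand, whose reads could not be told apart if strand was not used. Sfrp2 has 3 annotated transcripts, and its row, with the 0 values, may hold only the 1 transcript it names.

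The other SFRP genes examined were near the limit of detection. Frzb, also named Sfrp3, was listed at 0.399, 0.307 and 0.297 FPKM in Control and at 0.0618, 0.10 and 0.219 FPKM with TGF-β1, about 13, 10 and 9 against 2, 3 and 7 fragments. Its groups did not overlap, and without the filter it was called down, with a log2 change of -0.24, a standard error of 0.0706 and a limma adjusted p of 0.0449. That call was lost under 12 of 16 alternatives, with an adjusted p of 0.0237 to 0.209 over all 16. Leaving out any single library other than TGF-β1 replicate 3 ended it, at an adjusted p of 0.0739 to 0.118. Sfrp1 was listed at 0.109, 0.0217 and 0.0222 FPKM in Control, which is 5, 1 and 1 fragments, and at 0 in every TGF-β1 library. With 0 allowing up to 3 fragments, no difference in Sfrp1 was detectable at this depth (limma without the filter, adjusted p 0.304).

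**Figure D1:**
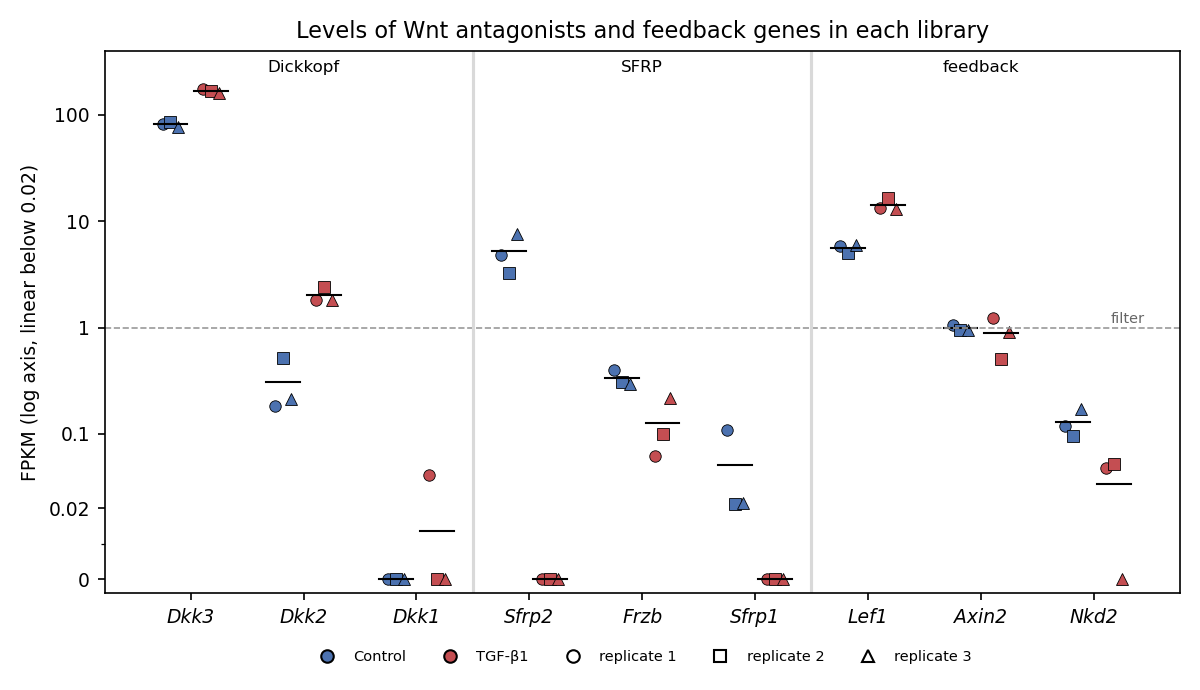
FPKM of the 9 genes in each library (log axis, linear below 0.02), Control in blue and TGF-β1 in red, with the replicate number as symbol and the group mean as a bar; the dashed line is the filter of 1 FPKM. Dkk3, Dkk2 and Lef1 sit higher in every TGF-β1 library, Sfrp2 lies at 0 in all 3, and Axin2 overlaps between the groups.

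Lef1 was listed at 5.79, 4.99 and 5.91 FPKM in Control and at 13.2, 16.5 and 13.1 FPKM with TGF-β1. All 3 TGF-β1 libraries stood above all Control libraries, and the ratio of the means was 2.57-fold. The log2 change was 1.21 with a standard error of 0.119 (limma adjusted p 4.34e-04). It is on mm9 chromosome 3, 130813389 to 130927274, plus strand, with 6 annotated transcripts, and it is not stated whether the row holds the gene or the 1 transcript it names.

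Axin2 was listed at 1.06, 0.956 and 0.957 FPKM in Control and at 1.23, 0.509 and 0.901 FPKM with TGF-β1. The Control libraries lay close together, and the TGF-β1 libraries fell on both sides of them. Its mean of both groups was just under the filter, and without the filter the log2 change was -0.10, with a 95% interval from -0.48 to 0.28 (limma adjusted p 0.668). The interval leaves room for changes in either direction, so the data do not show that Axin2 was equal in the groups. Without TGF-β1 replicate 2 the log2 change was 0.05 (adjusted p 0.752). That library differed from the other TGF-β1 libraries with the GC content of genes: Spearman's rho between GC content and a gene's deviation from its group mean was -0.391 in it, against 0.271 and 0.318 in replicates 1 and 3, over 10116 genes that are not independent. These deviations are taken from the mean of the same TGF-β1 libraries, so a trend in replicate 2 alone pushes replicates 1 and 3 the opposite way. The GC content of the Axin2 transcript is 54.6%, and the part of GC content in its value was not tested. Axin2 (mm9 chromosome 11, 108781663 to 108812097, plus strand) overlaps Gm11670 on the opposite strand. It has 7 annotated transcripts, and its row may hold only the 1 transcript it names.

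Nkd2 was listed at 0.120, 0.0958 and 0.172 FPKM in Control and at 0.0482, 0.0522 and 0 FPKM with TGF-β1, or 5, 4 and 7 against 2, 2 and 0 fragments. The groups did not overlap, but the difference was not called (log2 change -0.13, limma without the filter, adjusted p 0.0864). Of the 5 genes under the filter (Sfrp1, Frzb, Dkk1, Axin2, Nkd2), 1 was called, against 11.7% of the 7832 rows under it. In 3 of the 5 (Sfrp1, Frzb, Nkd2) the TGF-β1 libraries were all lower than the Control libraries, which held for 14.6% of those rows.

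The order of levels changed with the treatment. In Control it ran from Dkk3 over Lef1, Sfrp2, Axin2, Frzb, Dkk2, Nkd2 and Sfrp1 to Dkk1. Neighbouring ranges overlapped between Lef1 and Sfrp2, between Frzb and Dkk2, and between Nkd2 and Sfrp1. With TGF-β1 it ran Dkk3, Lef1, Dkk2, Axin2, Frzb, Nkd2 and Dkk1, ahead of Sfrp1 and Sfrp2 at 0, and the ranges overlapped from Nkd2 downwards. The 6 measured antagonists summed to 87.3 ± 2.15 FPKM in Control and 169 ± 7.64 FPKM with TGF-β1. Dkk3 made up 93.2% ± 2.48 of that sum in Control and 98.7% ± 0.204 with TGF-β1. Without Dkk3 the sum was 5.55, 4.11 and 8.07 FPKM in Control and 1.90, 2.5 and 2.02 FPKM with TGF-β1, so the sum with and the sum without Dkk3 differed in opposite directions. Most of that remainder was Sfrp2 in Control and Dkk2 with TGF-β1.

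Family sums, chosen after the values were seen, place the genes among their relatives. Over the TCF/LEF factors Lef1, Tcf7, Tcf7l1 and Tcf7l2, the summed level was 36.1 ± 0.472 FPKM in Control and 33.1 ± 4.32 FPKM with TGF-β1. Within it, Lef1 took 16.2%, 13.8% and 16.2% of the Control libraries' sums, while its shares of the TGF-β1 sums were 42.2%, 43.5% and 43.7%. Tcf7l1, a relative that mostly represses Wnt targets, took 61.1% ± 1.38 in Control and 33.6% ± 2.42 with TGF-β1. Its row names a transcript outside the annotated protein-coding transcripts. In the SFRP family, Sfrp4 shared the level with Sfrp2 in Control, and the sum over the 5 genes was 10.2 ± 3.37 FPKM against 0.353 ± 0.121 FPKM. In the Nkd pair, Nkd1 took 39.9% ± 2.79 of the summed FPKM in Control and 95% ± 4.37 with TGF-β1, at sums of 0.215 and 0.674 FPKM. The Control shares rest on about 3, 3 and 5 fragments of Nkd1 and 5, 4 and 7 of Nkd2. Their SD may therefore understate the uncertainty. Axin1 held 94.5% ± 1.34 and 93.9% ± 2.29 of the summed Axin level, so Axin2 was the minor Axin gene in both groups.

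**Figure D2:**
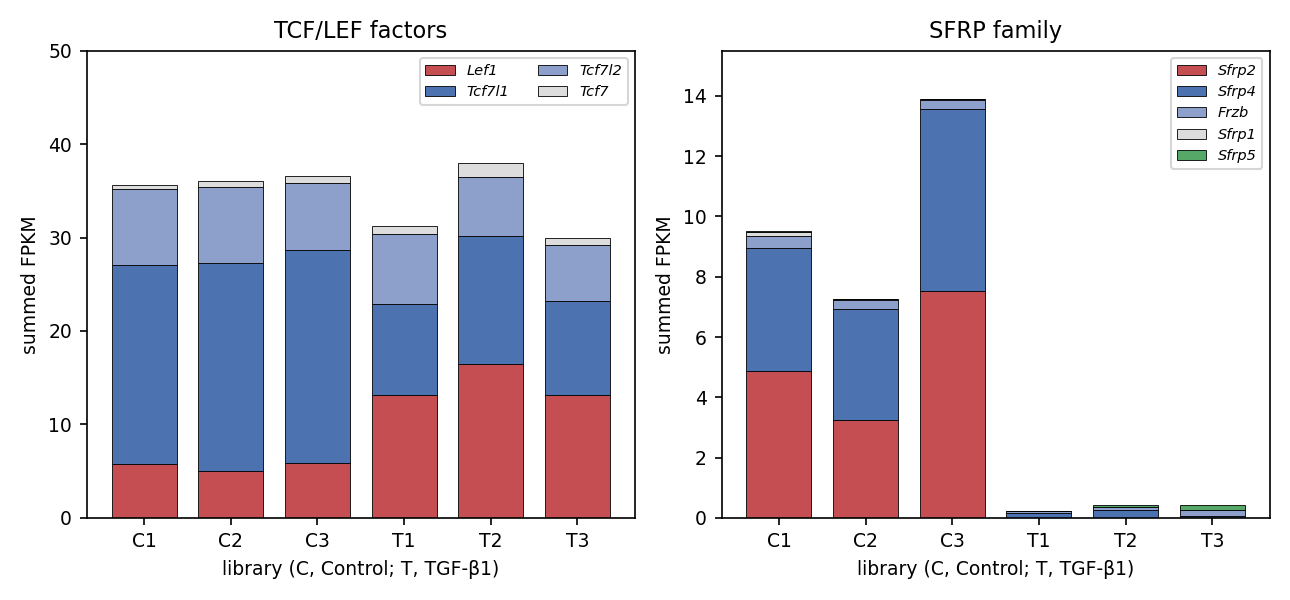
Summed FPKM of the 4 TCF/LEF factors (left) and of the 5 SFRP genes (right) in each library, bars stacked by gene and starting at 0. Lef1 grows from about 15.4% to 43.1% of the TCF/LEF sum, and both Sfrp2 and Sfrp4 are nearly gone from the TGF-β1 libraries.

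Sfrp2, Lef1 and Dkk2 lie on chromosome 3 of mm9, Lef1 and Dkk2 (131748256 to 131843257, plus strand) 821 kb apart. Between them are 6 rows, 4 of which passed the filter and 3 of which were called. Of all rows past the filter, 48.1% were called. Sgms2, a sphingomyelin synthase gene, rose (log2 change 0.57), while Hadh, an enzyme of fatty acid oxidation, fell by 0.52 on the log2 scale. The short RNA AC165333.1 fell by 2.70, from 2.60, 9.74 and 6.06 FPKM in Control to 0 with TGF-β1. It passed the filter only through Control, so its direction follows from passing it. Papss1, a gene of sulfate activation, was not called (0.15). Sgms2 and Hadh, both between Lef1 and Dkk2, were thus called in opposite directions, and the cause was not tested. These neighbours were chosen by position after the values of Lef1 and Dkk2 were known.

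The other genes of the pathway were taken from 4 lists, with 60 genes matched and 39 past the filter. Of these, 13 were called up, 11 down and 15 not, which is 61.5% called, against 48.1% of all rows, and the median log2 change was -0.02, close to that of all tested rows (-0.02). Among 11 matched further antagonists and their receptors, 4 passed the filter. Sfrp4, a relative of Sfrp2, had 4.61 ± 1.26 FPKM in Control and fell to 0.153 ± 0.105 (-2.26 on the log2 scale, limma adjusted p 2.22e-04), and Igfbp4, an IGF-binding protein that also inhibits Wnt, fell by 1.28 on the log2 scale. Apcdd1, a membrane-bound Wnt inhibitor, rose by 0.82, and Kremen1, a receptor for Dkk proteins, rose by 0.79. Like Sfrp2, both Sfrp4 and Igfbp4 passed the filter only through Control, so their direction follows from passing it, as it does below for Dact2 and Fgf9 and, through TGF-β1, for Lgr5 and Lgr6.

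Of 17 feedback and target genes, 9 passed the filter, 6 were called up and 2 down. That is 88.9% called, against 48.1% of all rows past the filter. The called genes include Dact2, Fgf9 and Lgr5, whose direction follows from passing it. Wisp1, a matricellular protein named for its induction by Wnt, rose from 12.6 ± 0.221 to 173 ± 11.7 FPKM (log2 change 3.67). Myc and Cd44, a growth-promoting transcription factor and a hyaluronan receptor, rose by 2.11 and 1.82. Dact2 and Fgf9, a Dishevelled-binding protein and a growth factor, fell by 1.33 and 0.70 on the log2 scale. Many signals besides Wnt induce Myc and Cd44, and which signal raised these genes or Wisp1 was not tested. Under the filter, Nkd1, the relative of Nkd2, rose from 0.0860 to 0.641 FPKM (log2 change 0.60, limma without the filter, adjusted p 7.59e-04), and Rnf43, a ubiquitin ligase that removes Frizzled receptors, fell by 0.82 on the log2 scale (adjusted p 0.0177). The feedback genes that bind Dishevelled did not share a direction.

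Among the 24 genes of the intracellular core, 22 passed the filter, 3 were called up, 6 down and 13 not. That is 40.9% called, against 48.1% of all rows past the filter. The largest called increases were in Ctnnb1, which encodes β-catenin (0.66, in a row that names a transcript of only 364 nt), and in Csnk1a1 (0.61) and Apc (0.51), both of the complex that breaks it down. The largest decreases were in the co-repressor Tle2 (-2.18), in Bcl9, a β-catenin co-activator (-1.01), and in Tcf7l1 (-0.94), the TCF/LEF factor that stood opposite to Lef1. Of 8 genes that release or amplify Wnt, 4 passed the filter. Lgr6, a receptor for R-spondins, rose from 0.0578 to 5.76 FPKM (log2 change 2.66), Wls, the carrier that brings Wnt to the cell surface, rose by 0.55, and Lgr4, another R-spondin receptor, fell by 1.45 on the log2 scale. Rspo3 and Rspo2, both R-spondins, were called down without the filter (-0.81 and -0.68).

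**Figure D3:**
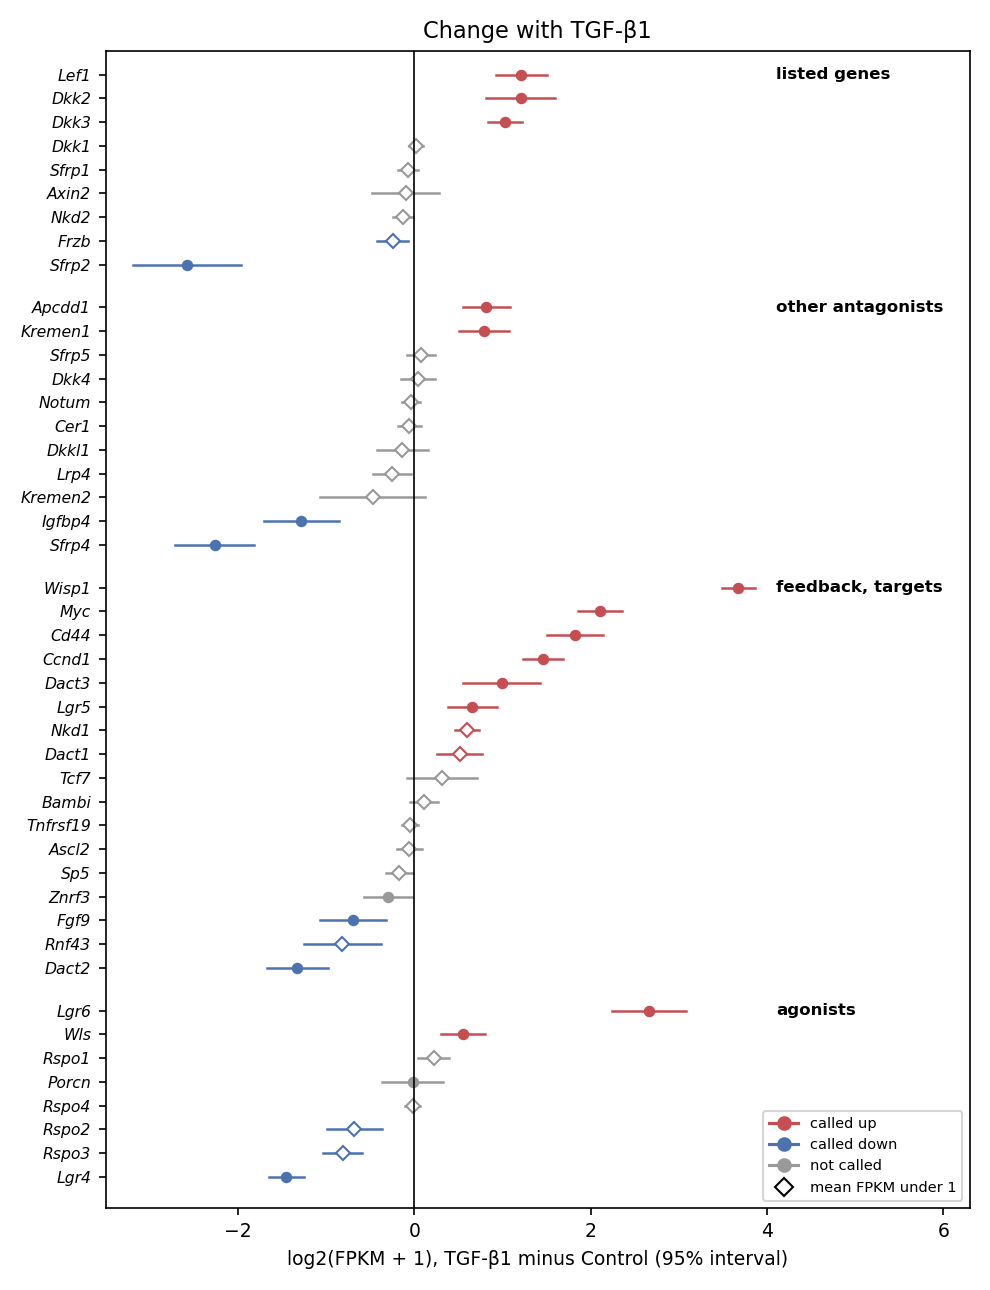
Log2(FPKM + 1) of TGF-β1 minus Control for the genes examined and 3 of the pathway lists, as points with 95% intervals; red is called up, blue called down, grey not called, and open symbols are genes with a mean under 1 FPKM. Sfrp2 (-2.58) and Sfrp4 (-2.26) lie farthest to the left, and Wisp1 (3.67) farthest to the right.

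The libraries matched their labels and were of even depth. Ctgf, a known response to TGF-β, was at 28.8 to 67.6 FPKM in Control and at 979 to 1258 FPKM with TGF-β1. Depth was about 10.1 to 11.1 M (mega) fragments per library. Of 8 mesangial markers, 7 were matched and 4 reached a mean of 1 FPKM (Acta2, Vim, Pdgfrb, Gata3), with summed levels of 2877 to 3409 FPKM in Control and 7214 to 7549 FPKM with TGF-β1, while Itga8 and Thy1 were at or near 0 and Des under 0.6 FPKM. The higher sum with TGF-β1 came from Acta2 (997 to 3887 FPKM) and Vim (2191 to 3436 FPKM), whose row names a transcript of only 479 nt. In contrast, Pdgfrb fell by 0.34 on the log2 scale (limma adjusted p 0.0396) and Gata3 was not called (1.76 and 1.03 FPKM). Of 6 tubular markers, 4 were matched and 1 reached 1 FPKM, and their sum was 115 to 148 FPKM in Control and 6.37 to 7.67 with TGF-β1, nearly all from Cdh16, with Cdh1 at or near 0. Of the other matched tubular markers, both under the filter, Lrp2 was called down (1.43 to 0.230 FPKM) and Slc12a1 up (0.0615 to 0.377 FPKM). The 4 matched of 5 macrophage markers, 2 of them at 1 FPKM or more, summed to 8.19 to 10.2 FPKM in Control and 2.26 to 3.25 with TGF-β1, with Ptprc at 0 in Control and Csf1r moving from 6.27 to 0.411, while Cd68 was not called (2.79 and 2.22 FPKM). The podocyte markers Podxl and Synpo fell by 0.56 and 0.58 on the log2 scale, with Nphs1 under 0.4 FPKM in every library, and the 5 endothelial markers, 0 of them at 1 FPKM, summed to 0.299 to 0.822 FPKM over all libraries. The tubular and macrophage sums, whose differences came mostly from Cdh16 and Csf1r, and these podocyte markers moved in the same direction as Sfrp2, and their part in its change was not tested.

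Across the alternative settings that could test them, up to 18, the 4 genes past the filter kept their calls, unlike Frzb. Sfrp2 passed the filter only through Control and Dkk2 only through TGF-β1, so their kept calls under it are a description. Without the filter their limma adjusted p was 8.87e-04 and 0.00187. The adjusted p ranged from 1.72e-04 to 0.00523 for Dkk3, 8.92e-04 to 0.0064 for Dkk2, 3.71e-04 to 0.00557 for Lef1 and 2.07e-04 to 0.00418 for Sfrp2.

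**Figure D4:**
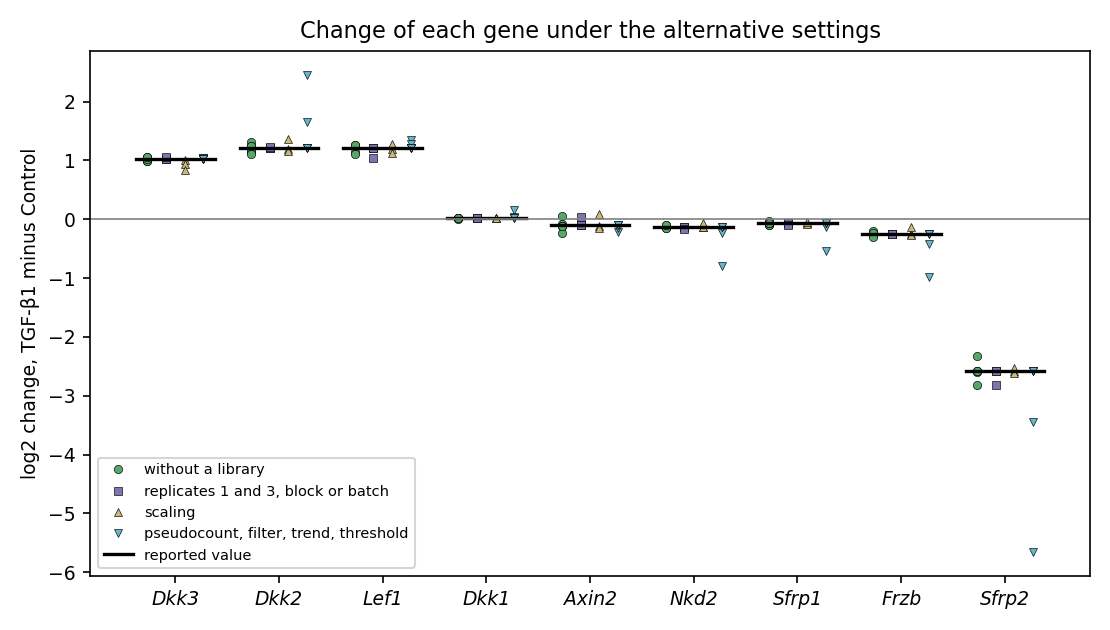
Log2 change of each gene under every alternative setting (points, by kind of setting) beside the reported value (bar). Dkk3, Dkk2 and Lef1 stay above 0 and Sfrp2 below it at every point, while Axin2 falls on both sides of 0, from -0.23 to 0.09.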

How the data were processed

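RNA-Seq (Illumina HiSeq) was run on total RNA from 3 Control and 3 TGF-β1 samples. Groups and replicate numbers are those of the labels. The study's methods call the samples triplicates, and its text speaks of biological replicates for another assay, but whether these RNA samples were separate cultures is not stated, so p-values measure the spread between these samples, which may be technical. The authors removed low-quality reads, mapped to mm9 with TopHat (version 2.0.11 in the submitters' processing notes, another version in the study's methods), estimated FPKM with Cufflinks, and tested with a count model. The deposited values are FPKM, 1 column per library, and 0 columns were unmatched. Each row names a transcript, and whether it holds the level of the whole gene is not stated. For Tcf7l1, Tle2 and Rnf43 the named transcript is not among the protein-coding transcripts of GENCODE M1. Coordinates are from GENCODE M1 (mm9), 1-based.

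Here log2 of the deposited FPKM plus 1 was tested with limma 3.58.1 (R 4.3.3; two-sided, mean-variance trend, Benjamini-Hochberg) on 11898 rows with a mean of at least 1 FPKM. Genes under that come from the same model on all 19730 rows. The code was tested on simulated data. Depth was taken from FPKM under 0.6 in 608 to 655 single-transcript genes per library, assuming 200 nt fragments: 99.5 to 99.8% of values lay within 0.15 of a whole fragment. Family shares and neighbours carry no test. Figures used matplotlib 3.10.9 in Python 3.11.15.

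The genes and lists were chosen with earlier results of these data known. Genes named beyond the 10 are, per pathway list, up to 3 called increases and 3 called decreases with the largest change and groups that do not overlap, with those under the filter taken separately, plus a treatment check and cell type markers, of which some items are not reported here. Alternatives varied the pseudocount, filter, scaling, trend, threshold, replicate block and libraries. Other data types of the study were not analysed here.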

Additional observations from a re-analysis of the deposited data

How the results depend on the processing

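Dkk3 and Lef1 kept their calls under all 18 alternatives, and Sfrp2 and Dkk2 under the 17 that could test them. Most of these reuse the filter, which Sfrp2 passed only through Control and Dkk2 only through TGF-β1. With a filter of at least 3 FPKM only Dkk3 and Lef1 are tested, so the genes called fell to 2, those called down to 0 and those changed at least 2-fold to 2, and with no filter 2 genes were called down (Sfrp2 and Frzb). At an adjusted p under 0.01, 3672 of all rows were called. Axin2 changed sign with quantile normalization (0.09, adjusted p 0.694), with replicates 1 and 3 only (0.038, adjusted p 0.862) and without TGF-β1 replicate 2 (0.051), and leaving out 1 library in turn gave -0.232 to 0.051; the cause was not tested. The correlations of same-numbered deviations were 0.092, 0.232 and 0.085, all positive. Those of differently numbered ones ran from -0.194 to 0.117 and were mostly negative. The highest of them was between Control replicate 1 and TGF-β1 replicate 3. Deviations from a group mean cancel out within the group, so positive values for same-numbered pairs push the other pairs towards negative ones. The contrast in sign is thus partly built in and cannot show pairing. Whether samples of the same number were paired is not stated. With the replicate block, 4 genes were called, and Frzb had a log2 change of -0.24 and an adjusted p of 0.109. Median-ratio and upper-quartile scaling moved the median of all rows to -0.04 and -0.10, with 2789 up and 2935 down, and 2471 up and 3329 down, against 2911 up and 2810 down as deposited. Depth limits Sfrp1, Frzb, Dkk1 and Nkd2, which rest on at most 13 fragments per library.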
